A study of Mus musculus with 4 samples.

Results

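Migratory, mature dendritic cells are followed here through 10 genes: Fscn1, Marcksl1, Cacnb3, Samsn1, Tbc1d4, Il4i1, Tnfrsf4, Bcl2l14, Tmem123 and Nudt17. They were taken by symbol from the 55450 gene rows of each count table, and all 10 passed the filter on low counts. The RNA came from CD11c+ cells of the mesenteric lymph nodes (MLN) of wild-type C57BL/6J mice, enriched on magnetic beads, so cells other than dendritic cells can remain. There were 2 agonist libraries (10 µM of an Ffar2 agonist, 6 h of culture) and 2 control libraries (water, 6 h), and no age or chemical name of the agonist was given in the sources used here. Both groups carry the numbers 2 and 3 in their titles. Each number marks a sample of 2 pooled MLNs that yielded about 90000 CD11c+ cells. Part of them went into an agonist well and the remainder into a control well, so that each pool gives 1 pair of wells. The Ffar2 protein senses short-chain fatty acids made by gut bacteria.

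Dendritic cells sample antigen in tissue, mature, and then travel through lymph to the draining node, guided by the chemokine receptor Ccr7. Maturation reshapes the actin cytoskeleton, slows antigen uptake and brings up costimulatory molecules and survival signals. In the gut-draining nodes such migratory cells carry food and microbial antigens to T cells. NF-kB factors are among the known drivers of this state.

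The promoters below are shown for the 2 genes with the largest agonist over control ratios, Fscn1 and Marcksl1, and the 2 with the largest ratios of pool 3 over pool 2, Bcl2l14 and Tnfrsf4. RefSeq windows (GRCm38.p6, 250 bases before to 50 bases after a transcription start) matched all 10 genes with 13 windows. The windows lie on the plus strand at chr5:142960105-142960404 for Fscn1, chr4:129513331-129513630 for Marcksl1, chr6:134396079-134396378 for Bcl2l14 and chr4:156013445-156013744 for Tnfrsf4. Capitals mark matches to an NF-kB type motif (GGG and CC with any 5 bases between them, on either strand) and, in Fscn1, also a cAMP response element (TGACGTCA) and a TATA box type motif (TATAAA).
Fscn1: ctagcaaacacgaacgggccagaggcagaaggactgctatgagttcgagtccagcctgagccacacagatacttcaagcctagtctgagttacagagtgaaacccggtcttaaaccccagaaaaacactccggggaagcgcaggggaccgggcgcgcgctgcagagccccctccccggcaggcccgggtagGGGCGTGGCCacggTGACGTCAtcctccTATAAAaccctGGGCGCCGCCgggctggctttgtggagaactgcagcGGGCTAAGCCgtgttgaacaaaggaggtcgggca
Marcksl1: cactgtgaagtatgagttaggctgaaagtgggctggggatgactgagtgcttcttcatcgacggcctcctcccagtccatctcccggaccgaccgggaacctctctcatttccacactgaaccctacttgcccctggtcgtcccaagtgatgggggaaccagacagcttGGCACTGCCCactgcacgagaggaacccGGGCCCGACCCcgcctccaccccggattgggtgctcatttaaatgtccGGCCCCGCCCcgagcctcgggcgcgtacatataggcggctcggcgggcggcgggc
Bcl2l14: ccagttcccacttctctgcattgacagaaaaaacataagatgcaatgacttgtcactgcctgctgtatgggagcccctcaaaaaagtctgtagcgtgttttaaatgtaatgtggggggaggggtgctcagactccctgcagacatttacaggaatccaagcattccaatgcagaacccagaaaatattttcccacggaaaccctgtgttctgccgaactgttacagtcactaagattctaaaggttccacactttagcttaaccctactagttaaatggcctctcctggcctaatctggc
Tnfrsf4: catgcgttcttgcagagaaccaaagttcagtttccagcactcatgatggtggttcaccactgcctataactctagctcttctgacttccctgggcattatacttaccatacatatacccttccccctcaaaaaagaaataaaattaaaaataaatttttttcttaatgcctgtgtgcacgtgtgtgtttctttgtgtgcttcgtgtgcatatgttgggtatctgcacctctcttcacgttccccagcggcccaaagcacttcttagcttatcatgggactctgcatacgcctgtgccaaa
With the first transcribed base as position 0, the Fscn1 window held NF-kB type matches that began at positions -59, -20 and 16. Its cAMP response element began at -45 and its TATA box type motif at -31, between the first and second of those matches. Marcksl1 held 4 NF-kB type matches, 2 of which overlap on opposite strands and read as 1 run of 11 capitals. Neither Bcl2l14 nor Tnfrsf4 held a match in the window shown, which is why those lines have no capitals. The NF-kB type motif occurs in 50.8% of 32851 RefSeq promoter windows of this length and in 9 of the 13 windows of the 10 genes, TGACGTCA in 1.79% of all windows and TATAAA in 13.6%. The G and C content of the windows was 61.7% in Fscn1 and 63.7% in Marcksl1, against 45.7% in Bcl2l14 and 43.7% in Tnfrsf4. Of the other motifs searched on both strands, an ETS type (GAGGAA, in 28.3% of all windows) was found in windows of Bcl2l14, Il4i1, Marcksl1 and Samsn1, and an E-box (CACGTG, in 7.15%) in Tnfrsf4. An AP-1 type (TGANTCA, in 7.81%) and an IRF type (GAAA and GAAA with any 2 bases between them, in 3.44%) were in none of the 13. A match describes letters and not a bound site.

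Most of the 10 genes were read at very high levels. Together they took 0.792% and 1.08% of all gene reads in the agonist libraries and 0.784% and 1.04% in the control libraries. On the scale of CPM (read counts put on one library scale by TMM) per kilobase of merged exons, which allows genes to be compared, Tbc1d4 had 472 ± 85.7 (SD, n = 4 libraries) and stood 65th of all gene rows. Samsn1 followed with 405 ± 71.1, Cacnb3 with 324 ± 79.4 and Bcl2l14 with 320 ± 117 CPM per kilobase. Tnfrsf4 had 171 ± 57.4, Tmem123 160 ± 21.1 and Nudt17 101 ± 24.0 CPM per kilobase. These 7 genes lay above at least 97.6% of the 18297 tested genes.

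Marcksl1 at 21.4 ± 5.28 and Fscn1 at 17.6 ± 4.25 CPM per kilobase (SD, n = 4) formed a lower step, above 88.0% and 86.0% of tested genes. Il4i1 was last at 1.22 ± 0.121 CPM per kilobase, above 40.7%. Between neighbours in this order, the ranges over the 4 libraries were separate only for Tmem123 over Nudt17, Nudt17 over Marcksl1 and Fscn1 over Il4i1. Cacnb3 stood above Bcl2l14 in 1 of 4 libraries, so these did not differ beyond their spread. With the longest annotated transcript as the length, the upper 4 genes changed places, with Samsn1 first at 945 CPM per kilobase, and the other 6 kept theirs.

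**Figure D1:**
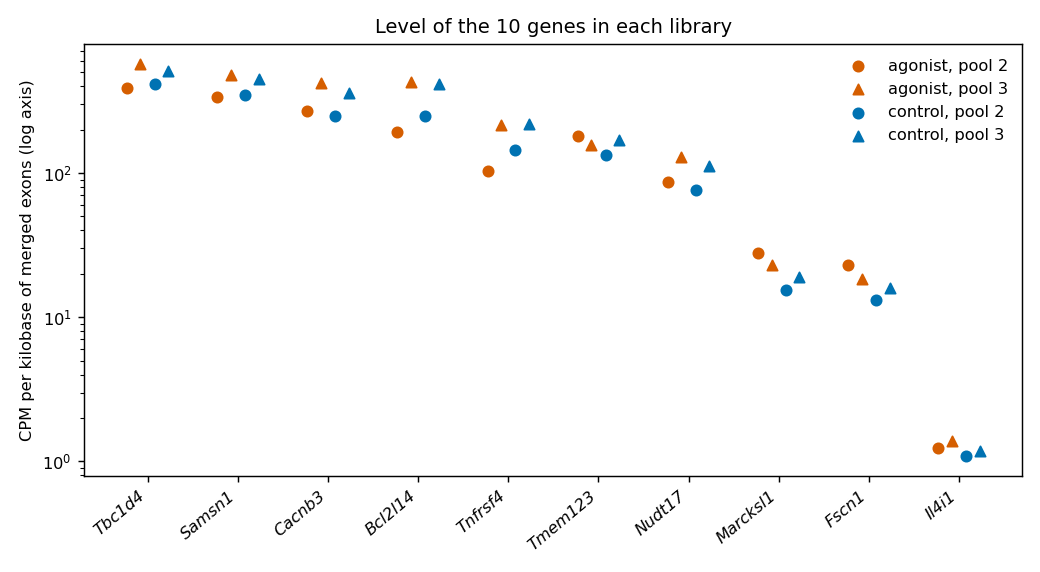
Level of the 10 genes in the 4 libraries, as CPM per kilobase of merged exons on a log axis; each point is 1 library, with agonist libraries in orange, control libraries in blue, pool 2 as circles and pool 3 as triangles. The means run from 472 for Tbc1d4 to 1.22 for Il4i1, and the triangles lie above the circles of both colours for Tbc1d4, Samsn1, Cacnb3, Bcl2l14, Tnfrsf4 and Nudt17.

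The level of Il4i1 may be limited by how reads were assigned, which was not tested. Of the 4080 bases of its merged exons, 3423 (83.9%) also lie in exons of Tbc1d17 on the opposite strand, and 560 (13.7%) lie in no other annotated gene. The library kit does not mark strand, and reads that fitted several genes were set apart from the gene counts, so the value above may cover only part of the transcript. Had all of its reads come from those 560 bases, the level would be 8.89 CPM per kilobase. Among the others, Bcl2l14 shares 14.1% of its exon bases with the antisense gene 4933406J09Rik, Nudt17 shares 4 bases with Pias3, and the other 7 genes share none.

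Other genes of the mature state were also prominent. Ccr7, the receptor that leads dendritic cells into lymph nodes, had 7374 and 13384 CPM in the agonist libraries and 10075 and 12262 CPM in the control libraries, and per kilobase it stood 5th of all gene rows. Cd83, a surface marker of mature dendritic cells, had 3316 and 3153 CPM in the agonist libraries and 1419 and 2668 CPM in the control libraries. The 44 other genes of the mature dendritic cell list summed to 3.40% and 4.04% of gene reads in the agonist libraries and 3.44% and 3.82% in the control libraries. Itgax, which encodes CD11c itself, had 178 and 95.5 CPM in the agonist libraries and 189 and 105 CPM in the control libraries. High levels of the defining maturation markers thus stood beside the 10 genes in all 4 libraries. All 4 came from cells cultured for 6 h, with no uncultured sample, so the part of culture in these levels was not tested. Ffar2 was low, with 1.71 and 2.05 CPM in the agonist libraries and 4.04 and 3.87 CPM in the control libraries.

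Depth was 49509736 and 59902172 reads in genes for the agonist libraries and 43238375 and 52417584 for the control libraries, so counting error was small for 9 of the 10 genes; Il4i1 rested on 193 to 318 reads per library. The Y-linked gene Ddx3y was at 21461 and 18752 reads in the agonist and control wells of pool 3, against 0 in both wells of pool 2. Xist was at 0 in pool 3, against 21194 and 17776 reads in the wells of pool 2. Pool and the sex of the mice therefore cannot be told apart. The labels do not tie single mice to a pool, and with 2 pools the p-values for the agonist speak of variation among these wells and pools only.

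The first comparison asks what the agonist did to these transcripts within 6 h. None of the 10 genes passed edgeR's quasi-likelihood test over all 18297 genes, where the share called was 0%. At an unadjusted p under 0.05 there were also 0 of the 10, beside 1.58% of all tested genes, and DESeq2 and limma-voom likewise called 0 of the 10, beside 0.0785% and 0% of all genes they tested. In one direction, 0.639% of genes were higher in agonist wells at an unadjusted p under 0.05 and 0.0196% passed as higher in DESeq2. None of the 10 was called with the pool as a block, where 0.00547% of genes were called, with no filter, where 0.0315% were (0.0105% higher), and without control replicate 2, where 0.00505% were. The log2 ratio of agonist over control was positive for 8 genes and negative for 2, with a median of 0.17 beside -0.05 over all tested genes. That median changed sign in some fits with a library left out. It was -0.15 without agonist replicate 3, -0.05 without control replicate 2, 0.36 without agonist replicate 2 and 0.40 without control replicate 3. Each such fit held 1 well of 1 pool and 2 wells of the other, so agonist and control were not balanced for pool. Taken within each pool, the median difference in log2 CPM was 0.15 in pool 2 and 0.19 in pool 3. The edgeR fit blocked on pool gave a median log2 ratio of 0.17. The cause of the sign changes was not tested. In the fit with group alone the standard errors (SE) ran from 0.27 to 0.44, so that even the largest ratios were less than 2 SE from 0. The 95% intervals of that fit reached log2 ratios between 0.72 and 1.28 at their upper ends, so changes up to those sizes lay within its error. With the pool as a block the SE ran from 0.23 for Nudt17 to 0.38 for Il4i1. For Bcl2l14 and Tnfrsf4 it was 0.24 each with the block, against 0.44 and 0.42 without it.

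Cytoskeletal genes gave the largest ratios. Fscn1 encodes fascin, which bundles actin filaments into the dendrites of mature cells and is a classical marker of them (ENSMUSG00000029581.14, chromosome 5, 142960343 to 142973185, plus strand, GRCm38). Fscn1 had 69.7 and 55.6 CPM in the agonist libraries and 39.5 and 47.9 CPM in the control libraries of pools 2 and 3. Both agonist libraries lay above both control libraries, and the widest gap was within pool 2. The log2 ratio was 0.52 (SE 0.29, 95% interval -0.18 to 1.22; edgeR adjusted p = 0.9999).

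Marcksl1 encodes a relative of MARCKS, a protein kinase C substrate that binds actin and calmodulin (ENSMUSG00000047945.6, chromosome 4, 129513581 to 129515985, plus strand). Marcksl1 had 44.7 and 36.9 CPM in the agonist libraries and 25.0 and 30.6 CPM in the control libraries. The order of the 4 libraries was the same as for Fscn1, with the agonist well of pool 2 highest and the control well of pool 2 lowest. Its log2 ratio was 0.55 (SE 0.30, 95% interval -0.17 to 1.28; edgeR adjusted p = 0.9999). Its relative Marcks had 142 and 189 CPM in the agonist libraries and 171 and 203 CPM in the control libraries, with a log2 ratio of -0.18 (SE 0.28). The fascin paralogs Fscn2 and Fscn3 were not tested, Fscn3 having 0 reads in all 4 libraries.

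Signalling and trafficking genes were abundant and had log2 ratios of 0.03 to 0.19. Tbc1d4 encodes AS160, a Rab GTPase-activating protein known from insulin-stimulated glucose transporter traffic in muscle and fat (ENSMUSG00000033083.16, chromosome 14, 101442360 to 101609191, minus strand). It had 2979 and 4415 CPM in the agonist libraries and 3200 and 3901 CPM in the control libraries. The groups overlapped fully, and the log2 ratio was 0.06 (SE 0.28, 95% interval -0.63 to 0.75). Samsn1, an SH3 and SAM domain adaptor known to restrain B cell activation (ENSMUSG00000022876.18, chromosome 16, 75858793 to 76022281, minus strand), had 1670 and 2360 CPM in the agonist libraries and 1724 and 2233 CPM in the control libraries. Its log2 ratio of 0.03 (SE 0.29, 95% interval -0.67 to 0.72) was the smallest of the 10 in size.

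Cacnb3 encodes the beta 3 regulatory subunit of voltage-gated calcium channels (ENSMUSG00000003352.14, chromosome 15, 98630840 to 98644529, plus strand). It had 1088 and 1686 CPM in the agonist libraries and 995 and 1432 CPM in the control libraries. Each agonist well stood above the control well of its pool, but the groups overlapped, and the log2 ratio was 0.19 (SE 0.33, 95% interval -0.60 to 0.98). Per kilobase, Cacnb3 was at 248 to 420 CPM over the 4 libraries, and the other beta subunits were far lower at 0.354 to 1.28 for Cacnb1, 0.0724 to 0.275 for Cacnb2 and 0.277 to 0.567 for Cacnb4. None of these 3 paralogs passed the test.

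Genes that act on T cells or amino acids came next. Tnfrsf4 encodes OX40, a costimulatory receptor best known from activated T cells (ENSMUSG00000029075.6, chromosome 4, 156013843 to 156016612, plus strand). It had 140 and 296 CPM in the agonist libraries and 197 and 300 CPM in the control libraries. The difference was within pool 2, where the agonist well was lower, while the wells of pool 3 were nearly equal, and the log2 ratio was -0.19 (SE 0.42, 95% interval -1.21 to 0.84). The gene of its ligand, Tnfsf4, had 34.0 and 65.0 CPM in the agonist libraries and 43.3 and 58.0 CPM in the control libraries, with a log2 ratio of -0.03 (SE 0.39). The 10 markers of regulatory and activated T cells, which also express OX40, summed to 316 and 305 CPM in the agonist libraries and 389 and 328 CPM in the control libraries, with none of them at 0 reads in any library, and their part in the Tnfrsf4 value was not tested. In bulk RNA, fewer cells of a type and less RNA per cell cannot be told apart.

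Il4i1 encodes a secreted L-amino acid oxidase that breaks down phenylalanine and dampens T cells (ENSMUSG00000074141.13, chromosome 7, 44816387 to 44840809, plus strand). It had 5.08 and 5.61 CPM in the agonist libraries and 4.43 and 4.81 CPM in the control libraries, values that the overlap with Tbc1d17 may lower. Both agonist libraries lay above both control libraries by a narrow margin, and the log2 ratio was 0.21 (SE 0.40, 95% interval -0.76 to 1.18). In all, 3 of the 10 genes (Fscn1, Marcksl1 and Il4i1) had agonist libraries above both control libraries, beside 11.4% of all tested genes, and 0 of the 10 had them below both, beside 13.5%.

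Bcl2l14 encodes Bcl-G, a member of the BCL-2 family of cell death and survival proteins (ENSMUSG00000030200.13, chromosome 6, 134396318 to 134438736, plus strand). It had 785 and 1743 CPM in the agonist libraries and 1020 and 1689 CPM in the control libraries. As with Tnfrsf4, the agonist well was the lower one in pool 2, and the log2 ratio was -0.10 (SE 0.44, 95% interval -1.17 to 0.98). Tmem123 encodes porimin, a mucin-like membrane glycoprotein linked to cell death with membrane injury in human cells (ENSMUSG00000050912.15, chromosome 9, 7764041 to 7794333, plus strand). It had 566 and 484 CPM in the agonist libraries and 414 and 528 CPM in the control libraries, so the pools pointed in opposite directions, and the log2 ratio was 0.16 (SE 0.27, 95% interval -0.49 to 0.80). Nudt17, of the Nudix hydrolase family (ENSMUSG00000028100.11, chromosome 3, 96706067 to 96708562, minus strand), had 193 and 289 CPM in the agonist libraries and 172 and 252 CPM in the control libraries. Each agonist well was slightly above its control well, with a log2 ratio of 0.19 (SE 0.33, 95% interval -0.62 to 0.99).

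Within the pools the 10 genes behaved unalike. In pool 2 the agonist minus control differences in log2 CPM spread from -0.49 for Tnfrsf4 to 0.84 for Marcksl1, with 6 positive and 4 negative and a median of 0.15. In pool 3 they lay between -0.13 for Tmem123 and 0.27 for Marcksl1, with 8 positive and 2 negative and a median of 0.19. Pool 2 was also the wider one over the 6543 tested genes with a mean log2 CPM above 4, where the 5th to 95th percentiles were -0.58 to 1.25, against -0.40 to 0.34 in pool 3. All 10 genes lay inside those ranges in both pools. In both pools, 5 of the 10 genes were higher in the agonist well (Fscn1, Marcksl1, Il4i1, Cacnb3 and Nudt17). Tnfrsf4 was lower in both, by a difference of only -0.02 log2 CPM in pool 3. The share of all tested genes that kept their direction in both pools was not counted, so these counts cannot be set against it.

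**Figure D2:**
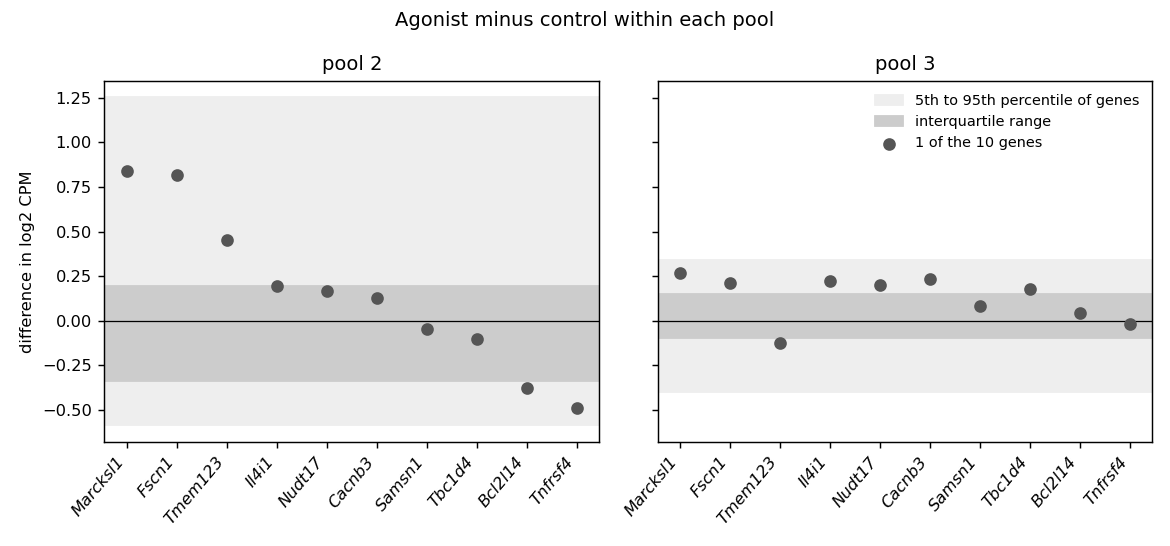
Agonist minus control difference in log2 CPM for each of the 10 genes (points) in pool 2 (left) and pool 3 (right), in the order of pool 2; grey bands give the interquartile range and the 5th to 95th percentiles of the 6543 tested genes with a mean log2 CPM above 4. The points run from 0.84 to -0.49 in pool 2 and from 0.27 to -0.13 in pool 3, all inside the wider band.

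Marker sums of other cells also differed between the wells. The 10 cDC1 markers summed to 709 and 608 CPM in the agonist libraries and 333 and 567 CPM in the control libraries. Irf8, a transcription factor gene, carried that sum with 505 and 264 CPM in the agonist libraries and 126 and 280 CPM in the control libraries. The other 9 cDC1 markers summed to 204 and 344 CPM in the agonist libraries and 207 and 287 CPM in the control libraries, and the median difference of the 10 was -0.13 log2 CPM in pool 2 and 0.07 in pool 3. The 18 T cell markers summed to 1269 and 598 CPM in the agonist libraries and 1785 and 916 CPM in the control libraries, with 18 of 18 log2 ratios negative. The 10 plasmacytoid dendritic cell markers summed to 994 and 625 CPM in the agonist libraries and 1344 and 799 CPM in the control libraries, with 10 of 10 negative. The 8 plasma cell markers summed to 207 and 139 CPM in the agonist libraries and 584 and 363 CPM in the control libraries, lower in the agonist well of both pools. Igha, the IgA heavy chain gene, held most of that difference, with 50.04 and 16.82 CPM in the agonist libraries and 394 and 164 CPM in the control libraries. Jchain, which links IgA, had 21.7 and 25.8 CPM in the agonist libraries and 66.9 and 100.5 CPM in the control libraries. Both were lower at an unadjusted p under 0.05 (edgeR adjusted p = 0.9999 for each), and Tnfrsf17 had 0 reads in both agonist libraries. The plasma cell markers did not fall as a set: of 7 tested, 4 log2 ratios were positive and 3 negative, with a median of 0.30. Their median difference was 0.45 log2 CPM in pool 2 and -0.23 in pool 3. None of the markers in these 4 lists passed edgeR's test, and their part in the values of the 10 genes was not tested.

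Of the 44 other mature dendritic cell genes, all were tested and 0 passed in either direction, with a median log2 ratio of 0.02. At an unadjusted p under 0.05 there was 1, Nfkb2, beside 1.58% of all tested genes, and DESeq2 and limma-voom called 0. With the pool as a block 0 passed as well. At an unadjusted p under 0.05 the edgeR fit with the block gave 3 of the 44, beside 645 of 18297 genes. DESeq2 with the block gave 6, beside 810 of 28600 genes. Nfkb2, a subunit of the non-canonical NF-kB pathway, had 171 and 94.5 CPM in the agonist libraries and 49.8 and 80.8 CPM in the control libraries (log2 ratio 1.02, SE 0.40, unadjusted p = 0.0430, edgeR adjusted p = 0.9999). Aldh1a2, the retinoic acid enzyme of gut dendritic cells, had 248 and 118 CPM in the agonist libraries and 64.4 and 109 CPM in the control libraries (log2 ratio 1.08, SE 0.45). Cd83 had a log2 ratio of 0.66 (SE 0.34) and Gadd45b, a stress and NF-kB response gene, one of 0.51 (SE 0.27). These 4 genes share the library order of Fscn1 and Marcksl1, highest in the agonist well and lowest in the control well of pool 2.

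Among the 22 uptake and sensing genes typical of immature dendritic and monocyte-derived cells, 21 were tested and 0 passed (median log2 ratio -0.07). In the agonist well of both pools, 10 were lower and 3 higher, and the share of all tested genes doing so was not counted. Mpeg1, which encodes perforin-2, had 135 and 167 CPM in the agonist libraries and 214 and 353 CPM in the control libraries (log2 ratio -0.91, SE 0.33, unadjusted p = 0.0330, edgeR adjusted p = 0.9999). Of 21 paralogs and binding partners of the 10 genes, 18 were tested and 0 passed (median 0.29). Tbc1d1, the paralog of Tbc1d4, had 186 and 180 CPM in the agonist libraries and 82.2 and 166 CPM in the control libraries (log2 ratio 0.56, SE 0.38).

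The second comparison sets pool 3 against pool 2, with condition as a covariate. With 1 pool in each arm and an agonist and a control well from each pool, the p-values speak of spread between wells and not of spread between mice. The 10 genes were mostly higher in pool 3: 6 of them (Bcl2l14, Tnfrsf4, Cacnb3, Nudt17, Samsn1 and Tbc1d4) had both wells of pool 3 above both wells of pool 2, where 24% of all tested genes did, and 0 had them below, where 25.2% did. None passed edgeR's test, which called 0.394% of all tested genes (0.104% as higher in pool 3). At an unadjusted p under 0.05, 4 of the 10 were higher and 0 lower, beside 6.15% and 7.71% of tested genes. The median log2 ratio of the 10 genes was 0.43, beside -0.01 over all tested genes. Mitochondrial genes took 1.48% and 1.77% of gene reads in the agonist and control wells of pool 3, against 2.23% and 2.20% in those of pool 2, and their part in this difference was not tested.

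Bcl2l14 differed most, with 1743 CPM in the agonist and 1689 CPM in the control well of pool 3, against 785 and 1020 CPM in the same wells of pool 2. The wells of pool 3 agreed closely while those of pool 2 were lower and further apart. The log2 ratio was 0.94 (SE 0.24, 95% interval 0.39 to 1.49; unadjusted p = 0.00395, edgeR adjusted p = 0.126). Tnfrsf4 had a log2 ratio of 0.84 (SE 0.24, 95% interval 0.29 to 1.40; edgeR adjusted p = 0.163), from 296 and 300 CPM in pool 3 against 140 and 197 CPM in pool 2. DESeq2 called both of these genes (adjusted p = 0.0112 and 0.0390) where it called 3.91% of all genes (1.62% as higher), and limma-voom called neither where it called 1.5% (0.53% as higher). Without the filter edgeR called Bcl2l14 (adjusted p = 0.0409), beside 2.1% of all genes (0.839% as higher). With pool as the only term in edgeR, leaving out control replicate 2 gave calls for both (adjusted p = 0.0250 and 0.0275) beside 4.25% of genes (1.93% as higher). Leaving out agonist replicate 2 gave a call for Bcl2l14 (edgeR adjusted p = 0.0414) beside 7.98% of genes (4.65% as higher), and leaving out either library of pool 3 gave none among the 10.

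Cacnb3 (log2 ratio 0.58, SE 0.23) and Nudt17 (0.57, SE 0.23) had unadjusted p values of 0.0343 and 0.0358 and edgeR adjusted p values of 0.307 and 0.312. Samsn1 had a log2 ratio of 0.44 (SE 0.23) and Tbc1d4 one of 0.43 (SE 0.24), with edgeR adjusted p values of 0.455 and 0.477. The other 4 genes were close to level between the pools, with 0.13 (SE 0.38) for Il4i1, 0.06 (SE 0.25) for Tmem123, 0.01 (SE 0.28) for Marcksl1 and -0.02 (SE 0.27) for Fscn1. For Fscn1, Marcksl1 and Tmem123 the sign depended on the condition: pool 3 was lower in the agonist wells (-0.33, -0.28 and -0.23 in log2 CPM) and higher in the control wells (0.28, 0.29 and 0.35). Summed over genes, the 6 with separate pools had 10789 and 9806 CPM in the agonist and control wells of pool 3. In those of pool 2 they had 6856 and 7306 CPM. These 6 were picked for lying higher in pool 3, so the direction of their sum was fixed in advance. The 4 others summed to 582 and 611 CPM in pool 3, against 686 and 483 CPM in pool 2. Most of that was Tmem123, with 484 and 528 CPM in pool 3 and 566 and 414 CPM in pool 2.

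**Figure D3:**
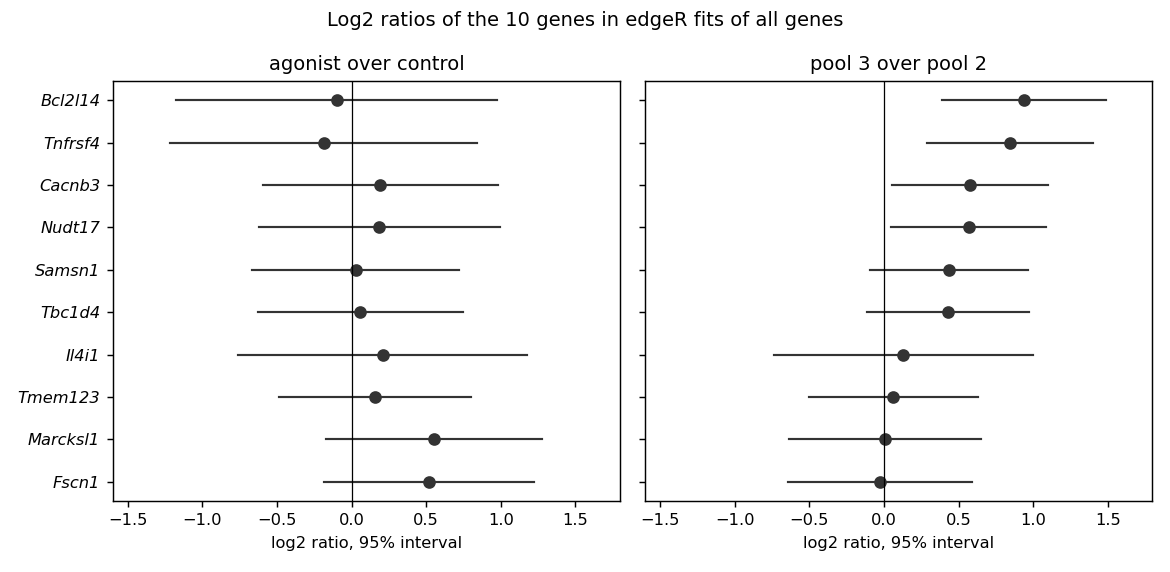
Log2 ratio (point) and 95% interval (line) of each of the 10 genes from edgeR's fits of all genes, for agonist over control (left) and for pool 3 over pool 2 (right), ordered by the right panel. All intervals on the left include 0; on the right those of Bcl2l14, Tnfrsf4, Cacnb3 and Nudt17 lie above 0, although none passed after adjustment over all genes.

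Other genes of the mature program were also counted between the pools. Of the 44, 0 passed edgeR's test, with 12 higher and 2 lower at an unadjusted p under 0.05, beside 6.15% and 7.71% of all tested genes, and a median log2 ratio of 0.21. DESeq2 called 6 and limma-voom 2, each of them higher in pool 3, beside 3.91% and 1.5% of all genes. Without agonist replicate 2 edgeR called 12 (11 higher) beside 7.98% of all genes, and without control replicate 2 it called 12 (9 higher) beside 4.25%. In the fits with a library left out, pool 2 had 1 well and pool 3 had 2, so pool and condition were not balanced. Il15, a cytokine presented to NK and CD8+ T cells, had 145 and 140 CPM in the agonist and control wells of pool 3. In those of pool 2 it had 55.8 and 63.1 CPM (log2 ratio 1.26, SE 0.24, edgeR adjusted p = 0.0733). The transporter gene Slco5a1 (1.17, SE 0.24), the death receptor gene Fas (0.94, SE 0.24) and the lysosomal membrane gene Laptm4b (0.91, SE 0.23) had edgeR adjusted p values of 0.0782 to 0.119. Ccr7 had a log2 ratio of 0.57 (SE 0.26, edgeR adjusted p = 0.373). Itgax pointed the other way at -0.87 (SE 0.23, edgeR adjusted p = 0.134). Of the partners, Tnfsf4 (0.68, SE 0.27) and Bcl2l11, a pro-death relative of Bcl2l14 (0.56, SE 0.23), had positive ratios, and Cacnb1 (-1.59, SE 0.45) and the Samsn1 relative Sash3 (-0.59, SE 0.23) negative ones, with edgeR adjusted p values of 0.154 or more.

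Marker sums of T cells, B cells, monocytes and plasmacytoid dendritic cells were lower in pool 3. The 18 T cell markers summed to 598 and 916 CPM in the agonist and control wells of pool 3, against 1269 and 1785 CPM in pool 2. The 14 B cell markers summed to 1003 and 1245 CPM in pool 3, against 1841 and 2018 CPM in pool 2 (1 passed, Ighd, lower). The 12 monocyte and macrophage markers summed to 3483 and 3147 CPM, against 5124 and 5726 CPM (0 passed). Lyz2 held most of that sum, and the other 11 summed to 623 and 607 CPM, against 850 and 1061 CPM. Of the 12 log2 ratios, 8 were negative and 4 positive (5 lower and 1 higher at an unadjusted edgeR p under 0.05). The 10 plasmacytoid dendritic cell markers summed to 625 and 799 CPM, against 994 and 1344 CPM (1 passed, Klk1, lower).

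None of these markers was at 0 reads in any library. The part of these and of the cDC1 and NK markers in the higher levels of the 6 genes in pool 3 was not tested. The direction of the T cell markers was opposite to that of Tnfrsf4. The 10 markers of regulatory and activated T cells summed to 305 and 328 CPM in pool 3, against 316 and 389 CPM in pool 2. Without Il2ra, the most abundant of them, the other 9 summed to 164 and 206 CPM, against 198 and 252 CPM. Of the 10 log2 ratios of pool 3 over pool 2, 7 were negative and 3 positive, with a median of -0.43. The cDC1 markers pointed the same way as the 6 genes, with 8 of 10 log2 ratios positive, 3 of them (Gcsam, Xcr1 and Clec9a) at an unadjusted p under 0.05, and a median of 0.64. Their sum was 608 and 567 CPM in pool 3, against 709 and 333 CPM in pool 2, and without Irf8 it was 344 and 287 CPM, against 204 and 207 CPM. The 10 cDC2 markers summed to 191 and 205 CPM, against 222 and 229 CPM. The 8 pan-dendritic cell markers, which include MHC class II genes that B cells share, summed to 19726 and 17155 CPM in pool 3. In pool 2 they summed to 21010 and 23426 CPM. Cd74 held most of each sum. Of the 8 log2 ratios, 4 were positive and 4 negative, with a median of 0.03, so the lower sum in pool 3 was not shared by the list. In these 4 lists, 0 of the markers passed the test. The 10 NK markers summed to 166 and 181 CPM in pool 3, against 147 and 159 CPM in pool 2, a sum carried by Klrk1; the other 9 summed to 19.0 and 30.6 CPM, against 35.1 and 43.1 CPM. Plasma cell markers summed to 139 and 363 CPM in pool 3, against 207 and 584 CPM in pool 2. Stromal and endothelial markers summed to 53.4 to 118 CPM and neutrophil markers to 7.64 to 20.9 CPM over the 4 libraries. Ly6g, which defines neutrophils, had 0 reads in all 4.

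**Figure D4:**
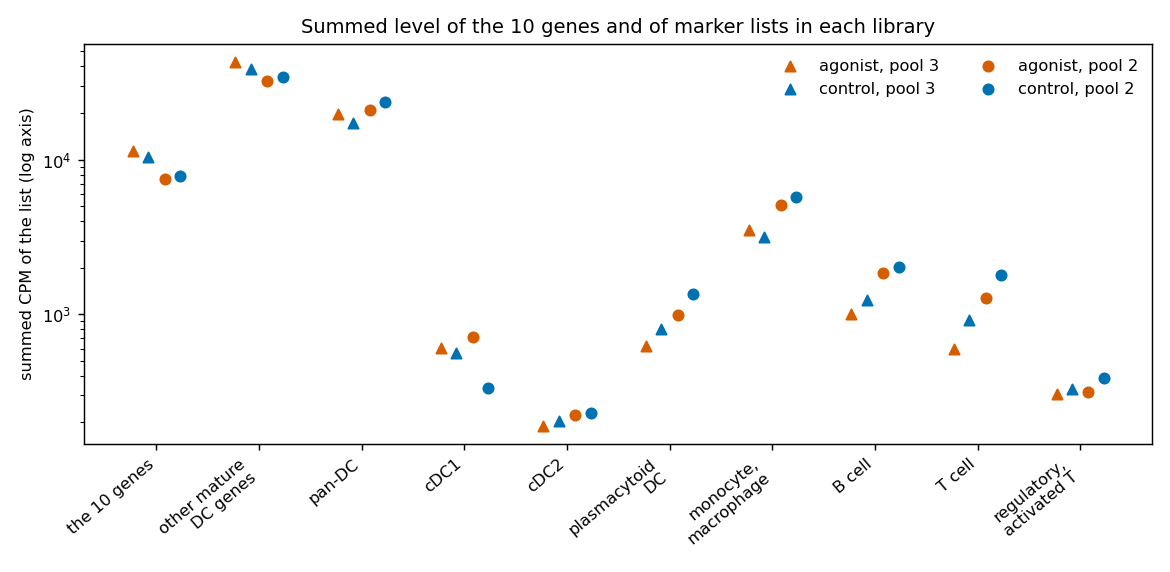
Summed CPM of the 10 genes and of the marker lists on a log axis; each point is 1 library, with pool 3 (triangles) left of pool 2 (circles) and agonist (orange) left of control (blue) within each pool. The 10 genes sum to 11371 and 10417 CPM in pool 3, above 7541 and 7789 CPM in pool 2, while T cell, B cell, plasmacytoid dendritic cell and macrophage markers lie lower in pool 3.

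The genes most like the 10 in pattern were sought among 9107 tested genes with a mean log2 CPM of at least 2, by the root mean square difference over the 4 libraries from the median centred profile of the 10. That profile was -0.21 and 0.28 in the agonist libraries and -0.27 and 0.15 in the control libraries of pools 2 and 3. The nearest were Gpalpp1, Adam19, Dctn2, Rgs19 and Uimc1, at 0.017 to 0.024 log2 units. Adam19, a membrane metalloprotease, had 329 and 457 CPM in the agonist libraries and 316 and 428 CPM in the control libraries. Among the 10 genes themselves, the centred values of Bcl2l14 were highest in pool 3 (0.49 in the agonist and 0.45 in the control well), and those of Fscn1 and Marcksl1 in the agonist well of pool 2 (0.42 and 0.41).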

How the data were processed

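The members and gene lists were chosen with earlier results of these data known. RNA of 2 agonist and 2 control wells was sequenced after SMART-seq v4 library preparation, per the labels' protocols. The authors deposited raw read counts for each gene, without normalization. STAR 2.7, HTSeq 0.11.1 and build GRCm38 (mm10) were used, per the submitters' processing notes; no strand setting is named in the labels. Summary lines stayed out of library sizes (no annotated gene, 15.96% to 19.99% of reads; several genes, 5.77% to 6.50%; several places, 6.54% to 6.98%). All 55450 rows matched GENCODE M21 by identifier and symbol, which gave coordinates and exon lengths.

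Counts were analysed with edgeR 4.0.16 in R 4.3.3: default expression filter (minimum count 10, 18297 genes left), TMM scaling (factors 0.947 to 1.05), and two-sided quasi-likelihood tests adjusted over all tested genes (Benjamini-Hochberg, threshold 0.05), with group alone for the agonist and with group as a covariate for the pools. SE came from the log2 ratio and F statistic, and 95% intervals from that SE. Log2 CPM of single libraries used a prior count of 2. Alternatives used DESeq2 1.42.0 and limma-voom (limma 3.58.1), other scalings and filters, a pool block and left-out libraries. The fits were checked on simulated counts. The protocol divides each pool between wells, and same-numbered libraries deviated together (Pearson r = 0.288 across 18297 genes), so the number pairs the libraries. Named genes are the 10 members, Ffar2, Itgax, Ccr7, Cd83, up to 4 genes of each list with the smallest p in either comparison, and the 5 nearest in pattern; Xist, Ddx3y, Marcks, Fscn2, Fscn3, Cacnb4, Ly6g and the genes overlapping a member were added after values were seen. Python 3.11.15 and matplotlib 3.10.9 made tables and figures. Klrk1, Tnfrsf17, Il2ra, Cd74 and sums without a list's most abundant gene were likewise added after values were seen. The test result of 1 marker gene is not reported here.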

Additional observations from a re-analysis of the deposited data

Results flagged for a closer look

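For 6 of the 10 genes the agonist minus control difference in log2 CPM changed sign between the pools, or the difference between the pools changed sign between agonist and control wells. The share of all tested genes that meet this rule was not counted, so the 6 cannot be set against it. Values close to 0, such as those of Samsn1, also meet the rule. With 1 well of each kind per pool, the difference between the pools in the agonist effect was not tested. The difference in pool 2 minus that in pool 3 was 0.61 for Fscn1 (0.82 in pool 2, 0.21 in pool 3), 0.57 for Marcksl1 (0.84 and 0.27) and 0.58 for Tmem123 (0.45 and -0.13). It was -0.42 for Bcl2l14 (-0.38 and 0.05), -0.28 for Tbc1d4 (-0.10 and 0.18) and -0.13 for Samsn1 (-0.05 and 0.08).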

How the results depend on the processing

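With the pool as a replicate block, edgeR called 1 gene in the agonist comparison against 0 without it, and DESeq2 called 7 against 12. No member and no gene of the mature dendritic cell list was called in any of these. The number of genes called for the agonist was 9 with no filter, 12 in DESeq2, and 0 to 2 when each library was left out. The number of the 10 genes called stayed at 0 under every alternative of that comparison. Their median log2 ratio was -0.15 to 0.40 when each library was left out (negative without agonist replicate 3 or control replicate 2); each such fit holds 1 well of one pool and 2 of the other. Between the pools, the count of 72 genes became 5 with library totals only, 600 with no filter, 8 with the stricter filter, 706 in DESeq2, 275 in limma-voom, 5 without the group term, and 1 to 1575 with each library left out. Members called were 1 with no filter, 2 in DESeq2 and 0 to 2 with each library left out. Genes of the mature dendritic cell list called were 5, 6 and 2 with no filter, DESeq2 and limma-voom, and 0 to 12 with each library left out. Each pool fit with a library left out held 1 well of one pool and 2 of the other, so pool and condition were not balanced. The median member ratio was 0.35 with library totals only. In the order of levels, 6 of 10 genes kept their place with the longest transcript length.

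In the agonist comparison, log2 ratios with a library left out ran from -0.16 to 0.55 for Cacnb3, -0.25 to 0.29 for Samsn1, -0.14 to 0.56 for Nudt17, -0.26 to 0.35 for Tbc1d4, -0.0091 to 0.42 for Tmem123, -0.83 to 0.29 for Tnfrsf4 and -0.79 to 0.40 for Bcl2l14. Signs also changed within pool 2 alone (Samsn1 -0.045, Tbc1d4 -0.10) and within pool 3 alone (Tmem123 -0.13, Bcl2l14 0.045). Between the pools, Marcksl1 was -0.075 with library totals only, -0.047 with the stricter filter, -0.016 in limma-voom and -0.046 without the group term, and Tmem123 was -0.020 with library totals only. With a library left out the ranges were -0.40 to 0.46 for Marcksl1, -0.42 to 0.41 for Fscn1 and -0.16 to 0.31 for Tmem123. The cause of these changes was not tested. With 2 pools the number of libraries, not depth, limits 9 of the 10 genes. Il4i1 also rests on few reads, 193 to 318 per library, and the part of its exon overlap in that was not tested.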
